A study of Rattus norvegicus with 164 samples.

Results

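The 77 genes described here encode the nuclear subunits of the mitochondrial respiratory chain and of ATP synthase that were expressed in the prelimbic cortex of heterogeneous stock rats. They were chosen by symbol and level: a gene symbol of the Nduf, Sdh, Uqcr, Cox4 to Cox8 or Atp5 families, a place on an autosome, and a mean of at least 3 over 130 libraries on the scale of log2(CPM + 1), where CPM is the estimated count scaled to a sum of 1000000 per library. This left 77 of the 38354 genes of the table. Complex I held 35 of them, 7 core and 28 accessory subunits, complex II 4, complex III 8, complex IV 11 and ATP synthase 19. Ndufa4 was counted with complex IV, in which its protein is known to reside despite its name. The mean level that chose the genes is given below as a description only.

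Heterogeneous stock rats descend from several inbred strains crossed over many generations, so that each animal carries its own mosaic of founder alleles. The prelimbic cortex lies in the medial prefrontal cortex, and its polyA RNA had been sequenced for genetic analyses, 1 library per identifier. The identifiers divide the libraries into 68 with a decimal number (the decimal series), 11 reassigned libraries, and 51 with another code that begins with E21DCD (the E21DCD series), per the labels. The 11 reassigned libraries carry an E21DCD code, but their original label, before a fix of a genotype mismatch, was unknown. The labels give no treatment, age, sex or batch for any of these groups, and no genotype is used here. Which animals share a litter or a day of extraction is not given, so p-values below measure the spread between libraries.

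Complexes I to IV sit in the inner mitochondrial membrane and pass electrons from NADH and succinate to oxygen. Complexes I, III and IV pump protons as they do so, and ATP synthase uses the returning protons to make ATP. Most subunits are encoded in the nucleus and a few in mitochondrial DNA, which were not analysed here. In cortex, where ion pumping at synapses uses much of the ATP, the chain is dense in neuronal processes.

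Libraries summed to 15122563 to 55950487 estimated counts, with a median of 25789090.5, and 20516 to 26540 genes with a value above 0. In 11 libraries, all decimal, genes of striatal projection neurons exceeded those of cortical glutamatergic neurons. Their summed level of 12 striatal genes was 5710 to 8230 CPM, with a median of 7170, and it was 357 to 974 CPM, with a median of 406, in the remaining libraries, defined below. The 10 glutamatergic genes summed to between 15.9 and 600 CPM in the 11 libraries and between 2060 and 3280 CPM in the remaining ones, so the label of cortex does not match the markers of the 11. A further 7 libraries, decimal replicate 15 and 6 of the E21DCD series, lay at 1 end of the first principal component of the libraries without the 11, which held 32.1% of the variance. The end taken was the one toward which the mean of cytosolic ribosomal protein genes rose. The genes described here entered that component, so values in the 7 libraries are a description with no test. Results that rest on either set are given with and without it, and the libraries outside both sets, called the remaining libraries, are 56 decimal, 11 reassigned and 45 E21DCD libraries.

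The genes with the highest mean were the alpha and beta subunits of ATP synthase. Atp5f1b, the beta subunit, had a mean of 10.07 ± 0.11 and Atp5f1a, the alpha subunit, 9.36 ± 0.12 on the scale of log2(CPM + 1) (SD, n = 130). Cox4i1, the common isoform of complex IV subunit 4, was at 8.80 ± 0.28, and Sdha, the flavoprotein of complex II that oxidises succinate, at 8.14 ± 0.23. Values are not divided by transcript length, so these means give no ranking of transcript numbers between genes. Of complex I the lowest mean was that of Ndufb1, an accessory subunit, at 4.40 ± 0.39. Of complex III, Uqcrc2, a core protein, was highest at 7.77 ± 0.16 and Uqcr10 lowest at 5.88 ± 0.34. Sdhc, a membrane anchor, was lowest of complex II at 6.62 ± 0.26, and Cox7a2 of complex IV at 6.62 ± 0.28.

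In all, 101 rows of the table matched the symbols, and 24 of them were not among the 77. Of these, 3 lie on the X chromosome: Ndufa1 at 5.55, Ndufb11 at 5.76 and Cox7b at 6.56. The other 21 are autosomal with a mean under 3, and 16 of them had a mean under 1. Just inside the limit were Atp5mkl1 at 3.86, Ndufb1 at 4.40 and Ndufc1 at 5.23. Just outside it were Cox7a2l2 at 2.92, Cox7a1 at 1.58 and Cox4i2 at 1.33. Cox7a2l2 ran from 0.39 to 6.50 between libraries, with a median of 2.88. The isoforms best known from muscle, testis or lung were among the rows under the limit. Cox6a2 and Cox7a1, the heart and skeletal muscle forms, had means of 1.19 and 1.58, and Cox8b, another muscle form, 0.23. Cox6b2, known from testis, was at 1.01, and Cox4i2, a lung form, at 1.33. Of the 16 rows under 1, 13 have names that end in l and a number, which marks a copy of another gene in this annotation. Reads can be split between such a copy and its source, so the values of Cox7c, Cox5b, Uqcr11, Uqcrb, Atp5pd, Atp5mg, Atp5mc1, Atp5mc2 and Atp5mk, each of which has such a row, and of Atp5mkl1 itself carry that uncertainty. The name Cox7a2l2 has the same form, so the values of Cox7a2 and Cox7a2l can carry that uncertainty too.

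**Figure D1:**
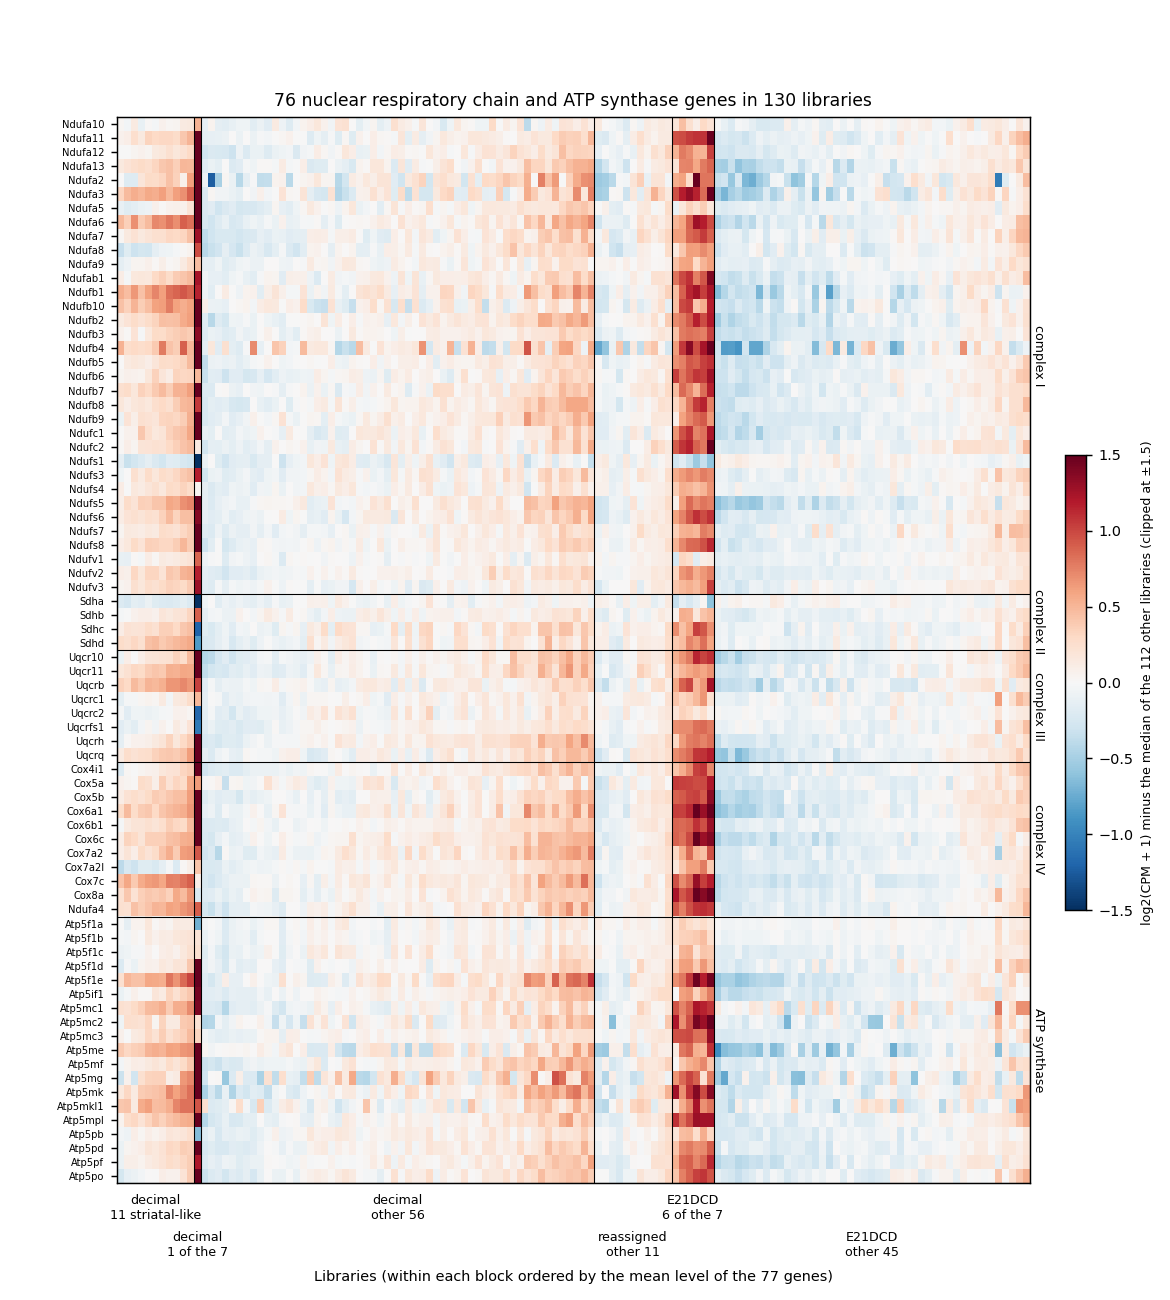
Level of 76 of the 77 genes (rows, grouped by complex) in each of 130 libraries (columns), as log2(CPM + 1) minus the median of the gene over the libraries outside the 11 and the 7. Colours are clipped at 1.5 in each direction; most rows are red in the 6 E21DCD libraries and in decimal replicate 15, while Ndufs1 and Sdha are mostly blue there.

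The subunits varied together from library to library, with a similar median r within and across complexes. Over the remaining libraries the median Pearson r of the 2926 pairs of genes was 0.64, and 96.9% of pairs had r above 0. Over all pairs of the 10671 autosomal genes with a mean of at least 3, the median r was 0.02 and 52.6% were above 0. Pairs within a complex had a median r of 0.64 and pairs between complexes 0.65. The median was 0.65 over the 56 decimal libraries, 0.64 over the 45 E21DCD libraries and 0.63 over all of them with median-of-ratios scaling. With all 130 libraries it was 0.72, against 0.12 for all pairs. All genes of a library share its depth scaling and its tissue make-up, so these r are a description.

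Complex IV held together most closely, with a median r of 0.81 over its 55 pairs and a lowest r of 0.45. Cox7a2l, which links complexes III and IV in supercomplexes, and Cox6b1, on the side of the intermembrane space, each had a mean r of 0.83 with the other genes of that complex. Complex III had a median r of 0.66, complex I 0.63 and ATP synthase 0.58. Complex II, which also belongs to the tricarboxylic acid cycle, had 0.42 over its 6 pairs. Ndufs1, the largest core subunit of complex I and carrier of iron-sulfur clusters, was the exception to the common pattern. Its mean r with the rest of complex I was -0.12, and its r was below 0 with 44 of the 76 other genes. The next lowest mean r within its own complex was the 0.17 of Sdhb, the iron-sulfur subunit of complex II. That complex holds only 4 genes, Sdha among them, and with all other members the mean r of Sdhb was 0.58. Sdha had r below 0 with 28 of 76.

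Ndufs1 and Sdha varied with each other. Between them r was 0.74 and Spearman's rho 0.76 over the remaining libraries (permutation tests, p = 1e-05 each, the smallest that 100000 permutations can give, and 1.5e-05 after adjustment over the 3 pairs computed, which were chosen after their values were seen). It was 0.73 without the 2 libraries farthest from the median of Sdha, 0.81 within the decimal and 0.53 within the E21DCD series. Ndufs1 and Cox6a1, the ubiquitous isoform of complex IV subunit 6A, went opposite ways, with r = -0.48 and rho = -0.44 (permutation tests, adjusted p = 1.5e-05 each), -0.40 without the 2 farthest libraries, -0.43 within the decimal and -0.53 within the E21DCD series. For Sdha and Cox6a1 r was -0.18 and rho -0.18 (permutation tests, adjusted p = 0.0636 each).

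**Figure D2:**
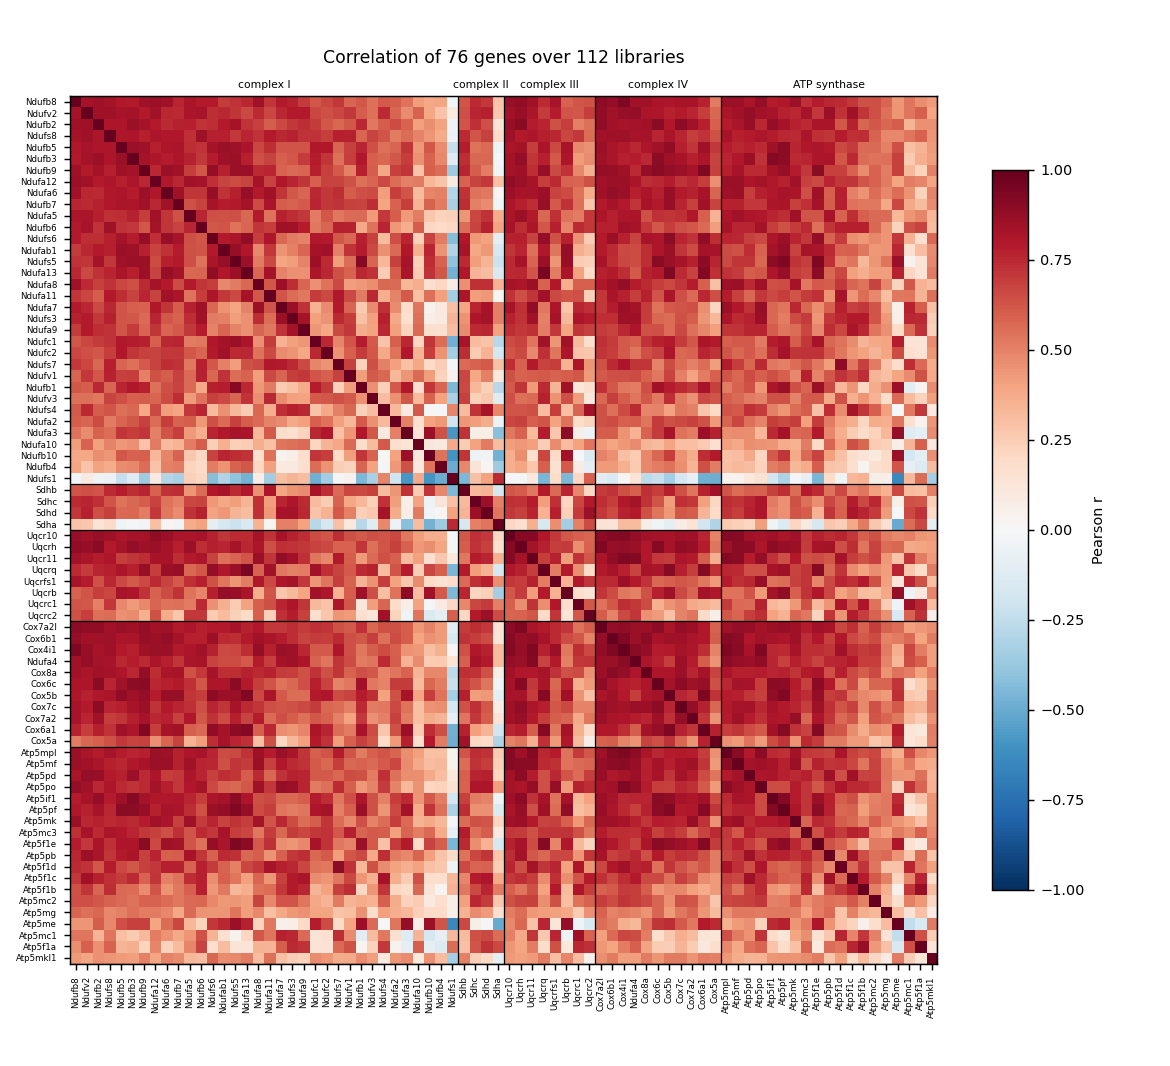
Pearson r between the levels of each pair among 76 of the 77 genes over the libraries outside the 11 and the 7, with genes grouped by complex and ordered by their mean r with all others. The complex IV block is the most even, with r between 0.45 and 0.93, while the rows of Ndufs1 and Sdha are mostly pale or blue except for their r of 0.74 with each other.

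Several members lie near each other in the genome. On chromosome 7, Ndufs7 starts 155.1 kb from Uqcr11 (r = 0.79 over the remaining libraries) and 108.1 kb from Atp5f1d (r = 0.89), the delta subunit of the ATP synthase central stalk. Ndufs8 and Ndufv1, both core subunits of complex I, start 161.4 kb apart on chromosome 1 and had r = 0.77. The positions are those of the table, whose gene ends match the GRCr8 annotation of RefSeq.

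Outside the 77, the mean level of the members followed other genes of mitochondrial assembly and of the cytosolic ribosome. As a description over the remaining libraries, the mean of the 77 genes had r = 0.92 with the mean of 35 assembly factors of complexes II, III and IV, 0.88 with 73 cytosolic ribosomal proteins, 0.76 with 15 assembly factors of complex I and 0.73 with 14 enzymes of the tricarboxylic acid cycle. With the mean of 16 regulators of mitochondrial genes, among them Nrf1, Gabpa and Ppargc1a, r was -0.76, and it was -0.80 within each series. Of the cell type lists, microglia had r = 0.55, blood 0.39, myelin 0.34 and astrocytes 0.33. Within the decimal series these were 0.47, 0.29, 0.16 and 0.32, in the same order. Within the E21DCD series they were 0.47, 0.32, 0.29 and 0.08. The r with glutamatergic neurons was -0.21 over all the remaining libraries, but -0.33 within the decimal and 0.30 within the E21DCD series. The r with the log10 of the summed count of a library was 0.10, and it was 0.17 within the decimal and -0.32 within the E21DCD series. With the number of genes above 0 it was -0.02, and -0.05 within the decimal and -0.40 within the E21DCD series.

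Individual subunits differed widely in how much they varied. The SD of each gene over libraries was divided by the trend of SD on mean over autosomal genes, so that a ratio of 1 is typical of its level. With all 130 libraries 16 of the 77 genes had a ratio of at least 1.5, and 17.0% of all autosomal genes tested did, so this share is near the background. At least 2 was reached by 3 of the 77 genes, Atp5f1e at 2.11, Ndufa3 at 2.06 and Atp5me at 2.02, beside 7.59% of genes. Ndufb4 at 1.98, Ndufa2 at 1.90 and Uqcrq, a small subunit of complex III, at 1.67 came next. The median ratio was 1.16 for the members and 0.99 for all genes. With median-of-ratios scaling 33 members reached 1.5, beside 18.0% of all genes.

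Without the 11 and the 7 libraries 21 of the 77 genes had a ratio of at least 1.5, beside 13.5% of all genes. Ndufb4, an accessory subunit of complex I, led with 2.53, followed by Atp5mg, subunit g of ATP synthase, with 2.34 and Ndufa2 with 2.24. In the remaining libraries Ndufb4 ran from 4.69 to 6.52 with a median of 5.58, and Ndufa2 from 3.99 to 5.98 with a median of 5.23. Atp5f1e at 2.19, Atp5me at 2.10 and Ndufa3 at 1.90 followed. At the other end was Sdha with a ratio of 0.56, running only from 8.02 to 8.38 with a median of 8.18. Atp5f1b at 0.62, Atp5f1a at 0.64 and Ndufv1, the core subunit that binds FMN, at 0.66 were nearly as steady. None of the 7 core subunits of complex I reached 1.5, with a median ratio of 1.03, and 8 of the 28 accessory subunits did, with a median of 1.26. The difference between core and accessory subunits was not tested.

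**Figure D3:**
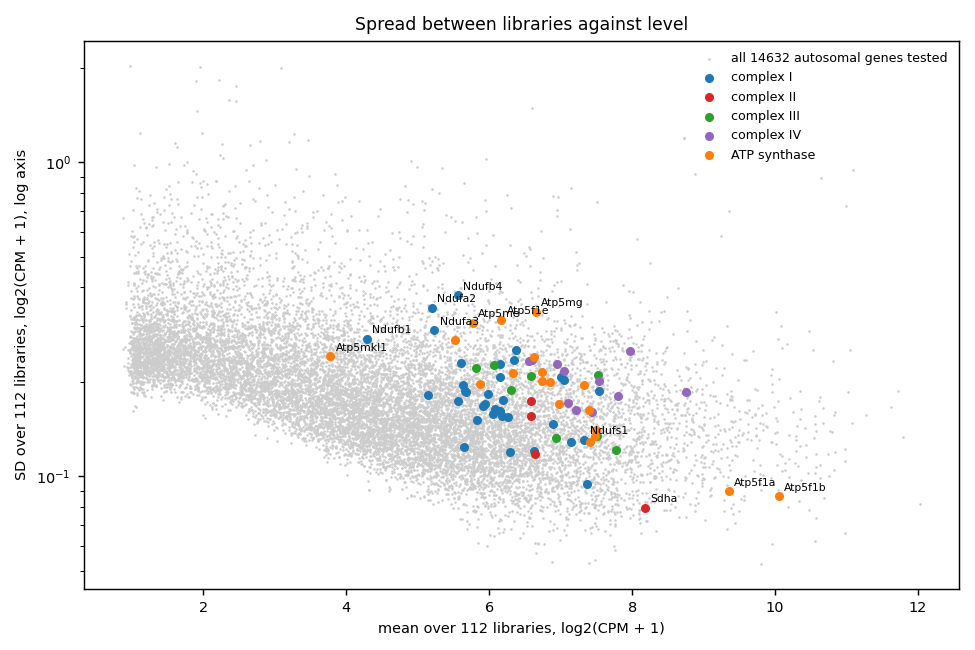
SD over the libraries outside the 11 and the 7 (log axis) against the mean level of every autosomal gene tested (grey) and of 76 of the 77 genes (colours by complex), both as log2(CPM + 1). Ndufb4, Atp5mg and Ndufa2 lie above the bulk of genes of their level, and Sdha, with an SD of 0.08, lies at its lower edge.

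The identifier is the label that divides the libraries. Over all 68 decimal and 51 E21DCD libraries, 16 of the 77 genes were higher in the decimal series and 0 lower (limma, Benjamini-Hochberg adjusted p under 0.05 over the 15150 genes tested). Of all genes tested 15.1% were higher and 12.6% lower, so the share of members that were higher, 16 of 77, is not far from the background. No member was lower at an unadjusted p under 0.05 either, and all 27 members with such a p were higher. Of all 15150 genes, 5898 had such a p in either direction, so the share of 27 of 77 is near the background. The median difference, decimal minus E21DCD, was 0.07 for the members and 0.01 for all genes, on the log2 scale. In bulk tissue, fewer cells of a type and less RNA per cell cannot be told apart.

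The genes with the largest differences were in ATP synthase and complex I. Atp5me, subunit e at the membrane interface of ATP synthase dimers, ran from 5.41 to 9.40 with a median of 5.98 in the decimal series and from 4.92 to 6.95 with a median of 5.68 in the E21DCD series. The ranges overlap, and the top value in each series belongs to 1 of the 7 libraries. The difference was 0.35 ± 0.09 (SE, 68 against 51 libraries, limma adjusted p = 0.00147). Atp5f1e, the epsilon subunit of the ATP synthase stalk, differed by 0.32 ± 0.09 (limma adjusted p = 0.00658), with 5.88 to 9.72 and a median of 6.35 in the decimal and 5.55 to 7.60 and a median of 6.03 in the E21DCD series. Its ranges overlap as well.

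In complex I, Ndufs5, an accessory subunit that faces the intermembrane space, ran from 6.19 to 8.45 with a median of 6.51 in the decimal and from 5.78 to 7.24 with a median of 6.25 in the E21DCD series, and differed by 0.29 ± 0.06 (limma adjusted p = 0.000259). Ndufb1 ran from 4.13 to 5.44 with a median of 4.47 in the decimal and from 3.48 to 5.54 with a median of 4.17 in the E21DCD series, a difference of 0.30 ± 0.07 (limma adjusted p = 0.000713). Both genes overlap between the series. Ndufb4, Ndufb2, Ndufb9 and Ndufa13, all accessory subunits, rose by 0.23, 0.19, 0.18 and 0.16. In complex I 6 of 28 accessory and 0 of 7 core subunits were higher, beside 15.1% of all genes. The difference between core and accessory subunits was not tested here either. In complex IV, Cox7c rose by 0.23 ± 0.06 (limma adjusted p = 0.00369), Cox7a2 by 0.20 ± 0.05 (limma adjusted p = 0.00171) and Cox6c by 0.18. Uqcrb and Uqcrh rose in complex III, by 0.14 and 0.13.

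Atp5mg, Atp5if1 and Atp5pb completed the ATP synthase genes that were higher. Atp5if1, which inhibits hydrolysis of ATP by the enzyme, ran from 6.65 to 8.28 with a median of 6.92 in the decimal and from 6.36 to 7.62 with a median of 6.77 in the E21DCD series, and differed by 0.15 ± 0.05 (limma adjusted p = 0.0105). The beta and alpha subunits did not pass, with differences of -0.01 ± 0.02 for Atp5f1b and -0.02 ± 0.02 for Atp5f1a. Nor did any gene of complex II, where the differences ran from -0.05 for Sdha to 0.07 for Sdhb. The genes Atp5mc1, Atp5mc2 and Atp5mc3 encode the same mature subunit c and differed by -0.05 ± 0.06, 0.04 ± 0.06 and 0.01 ± 0.05, none of them past the threshold.

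Without the 11 striatal-like libraries 6 of the 77 genes were higher and 0 lower in 57 decimal against 51 E21DCD libraries, while 5.29% of all genes were higher and 3.48% lower. At an unadjusted p under 0.05, 19 members differed, all of them higher. Of all 15150 genes 3485 had such a p in either direction, so the share of 19 of 77 is near the background. The 6 were Atp5me by 0.29 ± 0.09 (limma adjusted p = 0.0320), Ndufs5 by 0.25 ± 0.06 (limma adjusted p = 0.00826), Ndufb1 by 0.22, Ndufb9 by 0.17, Cox7a2 by 0.17 and Atp5if1 by 0.15, and all of them are among the 16. Atp5f1e, at 0.26 ± 0.10, did not pass (limma adjusted p = 0.0774), nor did Cox7c, at 0.15 ± 0.06 (limma adjusted p = 0.113). With median-of-ratios scaling as well, 1 member was higher, Ndufs5, and 0 lower (limma), beside 5.71% and 5.17% of all genes. At an unadjusted p under 0.05 there were 12 members, beside 3847 of all 15150 genes. Without decimal replicate 15 too, 7 members were higher, beside 10.5% of all genes, and 0 lower, beside 4.42%. Leaving out that library alone gave 16 higher, beside 21.9%, and with no filter on low values 8 were higher and 0 lower, beside 6.78% and 4.7%.

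Without the 7 libraries too, 56 of the 77 genes were higher and 1 lower in 56 decimal against 45 E21DCD libraries, beside 19.2% of all genes higher and 15.0% lower. Part of this count is built in, because 6 of the 7 libraries left out are E21DCD, had high levels of most members and were picked on a component to which the members contribute. The median difference was 0.14 for the members. All 11 genes of complex IV were higher, 14 of 19 of ATP synthase, 5 of 8 of complex III, 2 of 4 of complex II, and 21 of 28 accessory and 3 of 7 core subunits of complex I. With median-of-ratios scaling the counts were 55 and 1, beside 17.9% and 17.3% of all genes, and the 55 are among the 56. Leaving out the 7 but not the 11 gave 62 higher and 2 lower, Ndufs1 and Sdha, beside 25.8% and 20.9%.

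Values in this paragraph are without the 18 libraries, so the limit set by the choice of the 7 holds for these differences and p-values too. The size of the difference varied between subunits of 1 complex. In ATP synthase it was 0.35 ± 0.05 for Atp5f1e (limma adjusted p = 7.96e-07), where the decimal libraries ran from 5.88 to 7.23 with a median of 6.26 and the E21DCD libraries from 5.55 to 6.48 with a median of 6.02. It was 0.33 ± 0.05 for Atp5me (limma adjusted p = 9.69e-07) and 0.02 ± 0.02 for each of Atp5f1a and Atp5f1b. In complex I it was 0.34 ± 0.05 for Ndufb1 (limma adjusted p = 1.49e-08), 0.31 ± 0.04 for Ndufs5 (limma adjusted p = 1.98e-08) and 0.31 ± 0.07 for Ndufb4 (limma adjusted p = 0.000227), but 0.01 ± 0.03 for Ndufs7 and 0.01 ± 0.02 for Ndufv3. Ndufs1 was the gene that was lower, with a difference of -0.07 ± 0.03 (limma adjusted p = 0.0396), with 7.00 to 7.58 and a median of 7.27 in the decimal and 7.19 to 7.53 and a median of 7.38 in the E21DCD libraries. Its decimal values extend below those of the E21DCD series. Cox7c, with 6.32 to 7.43 and a median of 6.73 in the decimal and 6.19 to 6.86 and a median of 6.42 in the E21DCD libraries, differed by 0.29 ± 0.04 (limma adjusted p = 1.98e-08).

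**Figure D4:**
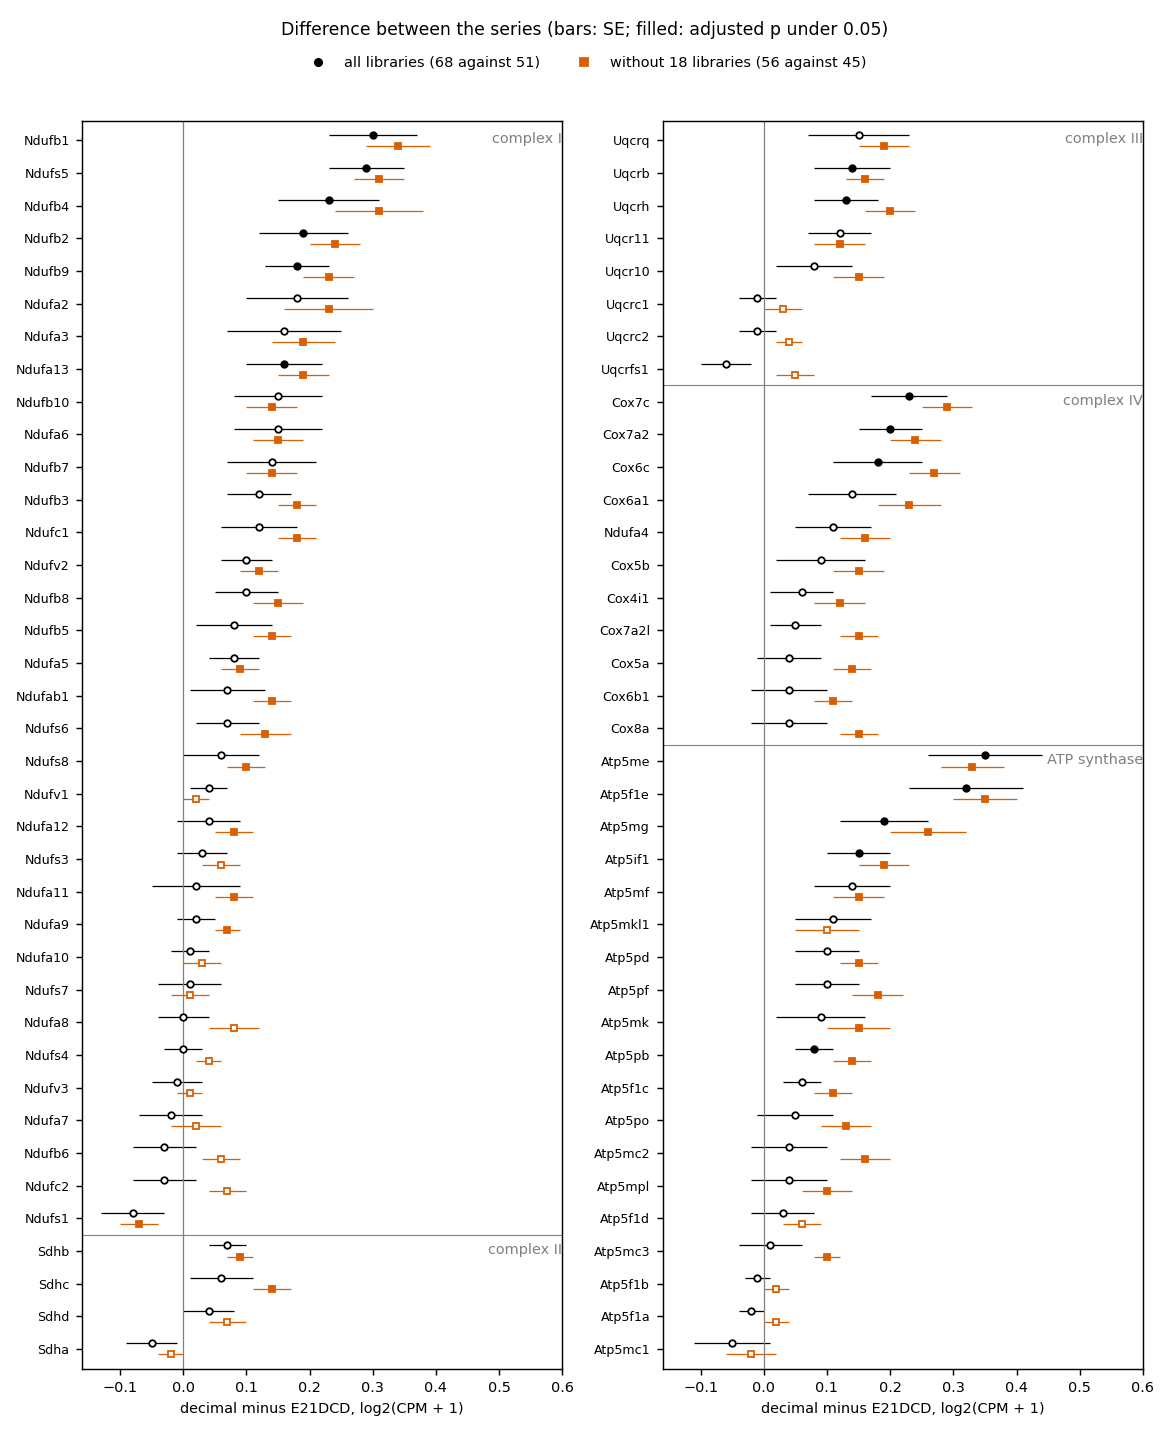
Difference between the decimal and the E21DCD series for 76 of the 77 genes, in log2(CPM + 1), with its SE, over all libraries (black circles) and without 18 libraries (orange squares); filled symbols passed an adjusted p of 0.05. Most genes lie right of 0, Atp5me at 0.35 and Atp5f1e at 0.32 over all libraries lie farthest, and Ndufs1, Sdha and Atp5mc1 lie left of 0 in both fits.

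Markers of other cells moved with the series. All 12 myelin genes were higher in the decimal series over all libraries, with a summed level of 1640 to 25300 CPM and a median of 5260 in the decimal and of 1200 to 13600 CPM and a median of 3140 in the E21DCD series. Of 10 microglial genes 5 were higher and 0 lower, with sums of 266 to 529 CPM in the decimal and 247 to 493 CPM in the E21DCD series. In both reduced sets of libraries all 12 myelin genes were higher as well, and without 18 libraries 8 of 10 microglial genes were. Of all genes 5.29% were higher and 3.48% lower without the 11, and 19.2% higher and 15.0% lower without the 18. The 7 libraries, 6 of them E21DCD, had high median sums of both lists, so leaving them out enters the counts without 18. These were 6730 CPM for myelin and 413 CPM for microglial genes, against 3690 and 315 CPM in the remaining libraries. Over all libraries the 10 glutamatergic genes were lower and 10 of 11 striatal genes higher, which without the 11 libraries became 1 lower of 10 and 3 higher of 11. Also over all libraries, all 8 genes of meningeal fibroblasts were lower, and 2 of 7 of blood and 2 of 10 of astrocytes were higher, beside the 15.1% of all genes that were higher and the 12.6% that were lower. No marker of the myelin and microglial lists was at 0 in all libraries of a series.

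With the means of the myelin and striatal lists in the model 0 members were higher and 1 lower (limma, all libraries), beside 2.41% and 3.99% of all genes. At an unadjusted p under 0.05 there were 10 members, beside 3204 of all 15150 genes. The lower gene was Uqcrfs1, the Rieske iron-sulfur protein of complex III, at -0.14 ± 0.04 (limma adjusted p = 0.0428), and Ndufs5, at 0.19 ± 0.07, came closest among those higher (limma adjusted p = 0.0559). Without 18 libraries and with myelin and microglia in the model 33 members and 2890 of all 15150 genes had an unadjusted p under 0.05 (limma). After adjustment 23 members were higher and 0 lower. They were led by Ndufb1 at 0.28 ± 0.05 and Atp5me at 0.28 ± 0.06, while 3.64% of all genes were higher and 1.4% lower. The limit set by the choice of the 7 libraries holds for this fit as well.

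The cytosolic ribosomal proteins differed in the same direction as the members. Over all libraries 51 of 73 were higher and 1 lower, with a median difference of 0.23, and without 18 libraries 66 of 73 were higher, with 0.25. Part of the count without 18 is built in, because the 7 were taken where these genes are high and most are E21DCD libraries. The counts of these lists stand beside 15.1% of all genes higher and 12.6% lower over all libraries, and 19.2% higher and 15.0% lower without 18. Of 35 assembly factors of complexes II, III and IV, 10 were higher and 0 lower over all libraries. The leading one was Cox17, a copper chaperone of complex IV, at 0.30 ± 0.07 (limma adjusted p = 0.00101). Of 15 assembly factors of complex I, 2 were higher, led by Ndufaf2 at 0.17, and 0 of 5 factors of ATP synthase passed. Enzymes of the tricarboxylic acid cycle had 1 higher, Suclg2 at 0.15, and 1 lower, Mdh2 at -0.07, of 14. Of 9 electron carriers 2 were higher, led by Coq7 of ubiquinone synthesis at 0.16, and 1 was lower, Gpd2 at -0.10. Cycs, cytochrome c, differed by -0.03 ± 0.04 and did not pass. None of 9 carriers of ADP, ATP and phosphate passed. Of 16 regulators 4 were higher, with the nuclear receptor Esrra at 0.18 ± 0.04 (limma adjusted p = 0.000209), Tfam at 0.11 and Nrf1 at 0.09 among them, and Ppargc1a, with a mean of 5.26 in each series, did not pass.

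**Figure D5:**
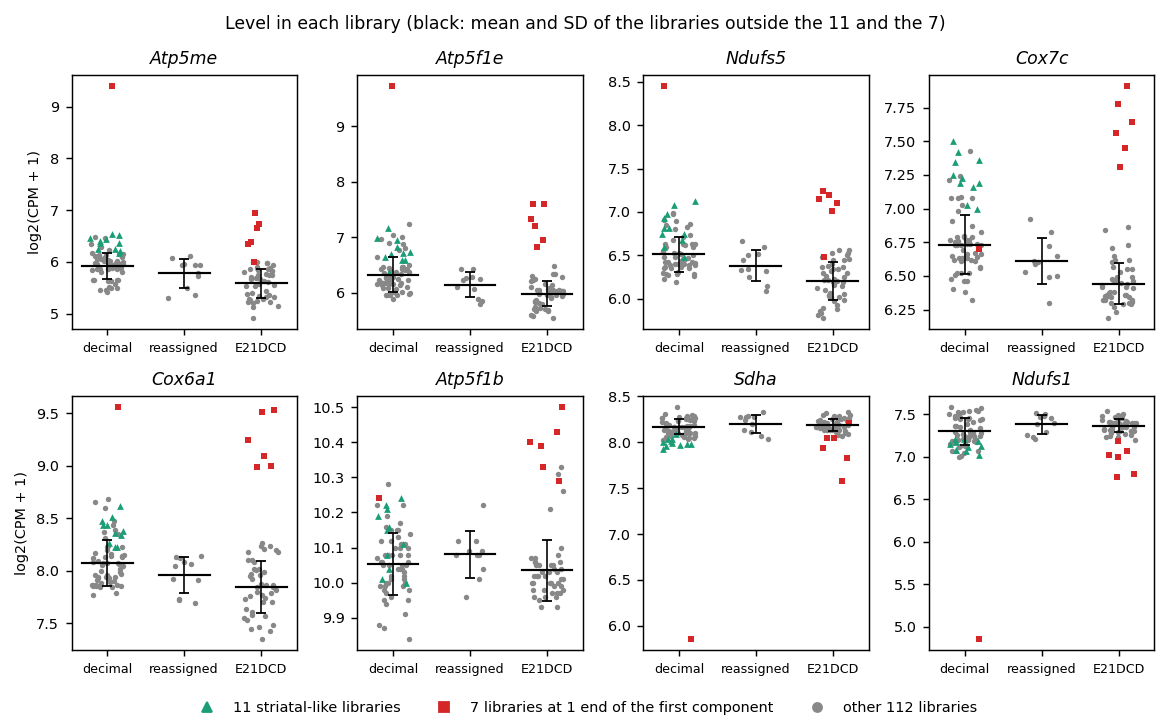
Level of 8 of the genes in every library, as log2(CPM + 1), by series, with the 11 striatal-like libraries as green triangles, the 7 as red squares and the mean and SD of the others in black. The red squares are above all grey points for Cox6a1, at 8.99 to 9.56. For Sdha and Ndufs1 decimal replicate 15 is lowest, at 5.86 and 4.86, and the E21DCD squares run from 7.58 to 8.21 for Sdha and from 6.76 to 7.18 for Ndufs1.

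The libraries that differed most in these genes were the 7. They were picked on a component to which the members contribute, so part of the separation below is built in. Of the 77 genes, 24 were higher in all 7 than in each of the remaining libraries, and 1.59% of all genes tested were; 0 were below, beside 6.26% of all genes. The 24 were 15 of complex I, 6 of complex IV, 2 of complex III and 1 of ATP synthase. The median difference, the 7 minus the remaining libraries, was 0.86 for the members and -0.20 for all genes, and 74 of the 77 genes had a higher mean in the 7. Cox6a1 of complex IV did not overlap, with 8.99 to 9.56 and a median of 9.25 in the 7 and 7.35 to 8.68 and a median of 7.96 in the remaining libraries. Ndufa3 ran from 6.09 to 8.43 with a median of 6.43 in the 7 and from 4.57 to 6.01 with a median of 5.25 in the remaining libraries, so its ranges do not overlap either.

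Ndufs1 and Sdha had a lower mean in the 7, and Uqcrc2 a nearly equal one. Ndufs1 ran from 4.86 to 7.18 with a median of 7.00 in the 7 and from 7.00 to 7.58 with a median of 7.35 in the remaining libraries. Sdha ran from 5.86 to 8.21 with a median of 7.94 in the 7 and from 8.02 to 8.38 with a median of 8.18 in the remaining libraries. The ranges overlap for both genes. Both lowest values are those of decimal replicate 15, and without it the 6 E21DCD libraries still had 6.76 to 7.18 for Ndufs1 and 7.58 to 8.21 for Sdha. In decimal replicate 15, 1 gene took 15.1% of all counts, and the subunits did not move together: Atp5f1e stood at 9.72 and Ndufa3 at 8.43, the highest of all 130 libraries, while Sdhc, at 5.34, was below its mean of 6.62.

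Other measures of the 7 libraries are a description, since genes of the lists below also entered the component. The 7 were taken at its end where ribosomal protein genes are high. They had 20516 to 24328 genes above 0, with a median of 22800, and the remaining libraries had 22643 to 26540, with a median of 24218.5. The 73 ribosomal protein genes summed to 15800 to 54400 CPM with a median of 21600 in the 7 and to 9660 to 21800 CPM with a median of 12500 in the remaining libraries. The 12 myelin genes summed to 3180 to 13600 CPM with a median of 6730 in the 7 and to 1200 to 22600 CPM with a median of 3690 in the remaining libraries. The 8 blood genes had medians of 611 CPM in the 7 and 219 CPM in the remaining libraries, and the 10 microglial genes 413 CPM in the 7 and 315 CPM in the remaining libraries, with overlapping ranges in both lists. The sums of the 16 regulators of mitochondrial genes did not overlap, with 209 to 443 CPM and a median of 427 in the 7 and 476 to 597 CPM and a median of 546 in the remaining libraries. The part of these in the levels of the members was not tested. In the 11 striatal-like libraries, by comparison, 0 of the 77 genes were above and 0 below all the remaining libraries, beside 5.15% and 7.1% of all genes. The mean was nonetheless higher in the 11 for 69 of the 77 genes, with a median difference of 0.23, and the median over all genes was 0.04.

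The promoters of the genes that stood at either end are shown so that members that vary together can be compared in sequence. Motifs known for factors of nuclear mitochondrial genes were searched on both strands from 250 bases before to 50 after the RefSeq start, in 69 of the 77 genes that the table of GRCr8 promoters holds. The NRF1 motif, GCGCANGCG, was found in 19 of the 69 promoters (27.5%) and in 5.80% of all 33469 promoters of the table. The GABPA motif, CCGGAAG, was found in 20 (29.0%), beside 8.75% of all, and the YY1 motif, AAGATGGC, in 15 (21.7%), beside 3.17%. At least 1 of the 3 was found in 43 of the 69 (62.3%), beside 15.7%. The promoters of the table were not limited by expression, while the members were chosen by their level. The share among promoters of genes of like level was not computed, so these shares do not set the members apart from other expressed genes. Below are 2 genes with large differences between the series, Atp5me and Ndufs5, and the pair that varied apart from the rest, Sdha and Ndufs1, each 5′ to 3′ on the strand of the gene, with motif matches in capitals.
Atp5me (chr14:1464610-1464909, plus strand): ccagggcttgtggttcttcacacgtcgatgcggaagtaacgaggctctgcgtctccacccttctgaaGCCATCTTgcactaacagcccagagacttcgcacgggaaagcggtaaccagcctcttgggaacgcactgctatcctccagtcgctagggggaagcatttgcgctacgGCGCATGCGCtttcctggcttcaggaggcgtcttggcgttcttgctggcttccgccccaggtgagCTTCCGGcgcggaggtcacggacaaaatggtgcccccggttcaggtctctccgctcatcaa
Ndufs5 (chr5:141264353-141264652, minus strand): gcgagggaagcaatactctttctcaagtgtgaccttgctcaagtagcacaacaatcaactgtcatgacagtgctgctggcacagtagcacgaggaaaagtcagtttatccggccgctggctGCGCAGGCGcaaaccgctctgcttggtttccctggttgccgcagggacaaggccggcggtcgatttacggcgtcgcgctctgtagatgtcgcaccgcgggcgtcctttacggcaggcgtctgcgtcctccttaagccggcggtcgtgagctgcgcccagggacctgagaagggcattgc
Sdha (chr1:30764303-30764602, plus strand): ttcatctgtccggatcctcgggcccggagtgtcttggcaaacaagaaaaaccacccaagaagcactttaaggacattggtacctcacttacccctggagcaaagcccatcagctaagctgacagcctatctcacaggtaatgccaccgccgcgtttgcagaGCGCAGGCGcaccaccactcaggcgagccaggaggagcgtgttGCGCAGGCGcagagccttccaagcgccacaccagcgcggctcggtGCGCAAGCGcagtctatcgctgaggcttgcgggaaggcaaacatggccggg
Ndufs1 (chr9:72073556-72073855, minus strand): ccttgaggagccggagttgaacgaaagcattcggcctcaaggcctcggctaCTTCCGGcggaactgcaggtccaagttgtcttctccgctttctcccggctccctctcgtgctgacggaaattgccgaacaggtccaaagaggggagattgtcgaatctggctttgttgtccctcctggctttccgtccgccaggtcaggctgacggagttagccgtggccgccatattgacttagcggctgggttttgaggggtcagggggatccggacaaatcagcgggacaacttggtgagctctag

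Positions below are counted from the start as 0. Atp5me holds all 3 motifs: NRF1, which matches there on both strands with overlap, from -76 to -67, YY1 from -183 to -176 and GABPA from -11 to -5. Ndufs5 holds 1 NRF1 match, from -129 to -121. Sdha holds 3 NRF1 matches, the nearest of which runs from -1 to 7, and Ndufs1 holds 1 GABPA match, from -199 to -193. A match is a description of letters, not of binding, and the starts used by RefSeq for Atp5me and Ndufs5 differ from those of the deposited table.

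The 11 reassigned libraries, whose original label was unknown, were compared with the 51 libraries of the E21DCD series. No member passed the threshold, and neither did any of the 15150 genes (limma, 0.0% called in each direction). At an unadjusted p under 0.05, 634 genes but 0 of the 77 members were counted. The differences of the members, reassigned minus E21DCD, ran from -0.11 for Atp5mc1 to 0.09, with a median of -0.01 and SEs of 0.04 to 0.18, which is the precision that 11 libraries give. With no filter on low values 0.00584% of all genes and 0 members were higher. No reassigned library belonged to the 7, and 6 of the 51 did. Without those 6, all 77 differences were above 0, with a median of 0.08, and 27 had an unadjusted p under 0.05, but the lowest adjusted p was 0.36 (limma). Of all 15150 genes 1324 had an unadjusted p under 0.05 in that fit. Part of the shift of the members is built in. The 6 had high levels of most members and were picked on a component to which the members contribute.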

How the data were processed

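Prelimbic cortex RNA of 164 samples is described by the labels, of which 34 have no column in the table used here (33 with no matching genotype and 1 removed, per the labels). Reads were quantified with kallisto 0.48, per the submitters' processing notes; other steps are not given in the sources used here. The deposited values are log2 of the estimated count plus 1 per gene, not scaled for library size. The logarithm was undone, each library was brought to a total of 1000000 (CPM), and log2(CPM + 1) was computed. Because the values are estimates on a log scale, count models were not used. Sums of 15122563 to 55950487 estimated counts limit the precision of low genes. All columns were used, and no 2 libraries were treated as repeats, since their centred values correlated at 0.945 or less.

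Genes with a mean of at least 1 (15150) entered limma 3.58.1 in R 4.3.3 (linear model, trend, two-sided, Benjamini-Hochberg adjustment over all genes, threshold 0.05). SD ratios used a lowess trend (frac 0.3) in Python 3.11.15 with statsmodels 0.14.6. Pairs of genes got 100000 permutations with numpy 2.4.6. The fits were tested on simulated data. The members and lists were chosen with earlier results of these data known. Named genes are the 6 largest rises and falls of the fits with all libraries, without 11 and without 18, the 6 highest SD ratios, the extremes of r within a complex and of the mean in each complex, those at the limit of 3, tissue isoforms, subunit c genes, Ndufa4, Cox7a2l and Atp5if1, and the leading genes of each list; others were chosen after their values were seen. Values of 1 member are not reported here, though it is in all counts. Alternatives were median-of-ratios scaling, a pseudocount of 0.1, filters, covariates and sets of libraries left out. Positions match GRCr8, found by comparison with RefSeq, since the labels name no build.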

Additional observations from a re-analysis of the deposited data

How the results depend on the processing

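The number of members higher in the decimal series was 16, beside 15.1% of all genes. With median-of-ratios scaling it was 8, beside 14.3% of all genes higher and 15.7% lower. With no filter on low values it was 8, beside 6.78% higher. It was 6 without the 11 libraries, beside 5.29%, and 7 without these and decimal replicate 15, beside 10.5%. Without the 11 and with median-of-ratios scaling it was 1, beside 5.71%. It was 62 without the 7 libraries, beside 25.8%, and 56 without all 18, beside 19.2%. Without the 18 and with median-of-ratios scaling it was 55, beside 17.9%. Part of each count without the 7 is built in, as stated above. With the myelin and striatal lists as covariates the number was 0, beside 2.41%. Members lower numbered 0, but 1 without the 18 libraries under either scaling, 2 without the 7 libraries (Ndufs1 and Sdha) and 1 with those covariates; the cause was not tested. Other settings gave 16 to 23 members higher and 0 lower. The 23, without the 18 and with myelin and microglia as covariates, stand beside 3.64% of all genes higher. The same limit holds for them. The rest of these settings stand beside 14.6% to 21.9%. Combinations of a scaling or covariate with a set left out, and leaving out decimal replicate 15, were chosen after seeing the data. Between the reassigned and the E21DCD libraries each alternative run gave 0 members past the threshold. The 16 SD ratios of at least 1.5 became 33 with median-of-ratios scaling and 3 with a limit of 2. The median r between members, 0.72, was 0.73 without the 11 libraries, 0.64 without the 18, 0.65 and 0.64 within the decimal and E21DCD series without the 18, and 0.63 with median-of-ratios scaling without the 18. For 30 named members under 17 settings, 0 of 510 differences reversed a called sign and 427 kept their side of the threshold. The 427 include members that passed the threshold in neither fit and so had no called sign to reverse. With the myelin and striatal lists as covariates 10 of the 30 lost their call. The 20 that kept their side there were not called in either fit. No paired analysis was possible because the labels give no replicate numbers.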
